A study of Mus musculus with 6 samples.

Results

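The genes described here are 10 markers of smooth muscle cells and of the mesenchymal cells around vessels and airways, chosen by name: Acta2, Myh11, Actg2, Cnn1, Des, Tagln, Lmod1, Myocd, Pdgfra and Pdgfrb. All 10 were found among the 23420 genes listed, and all 10 passed the filter on low values. RNA came from whole mouse lungs of stage E11.5dpc (embryonic day, counted in days post coitus), in 3 control pools (Raptorf/+; ShhCre/+) and 3 mutant pools (Raptorf/f; ShhCre/+), with lungs of 1 genotype combined, 3 or 4 to a pool. Raptorf is a floxed allele of Rptor, the gene of the mTORC1 subunit RAPTOR, and control lungs carried 1 such allele beside a wild-type one. ShhCre is Cre recombinase placed in the Shh locus, so every animal of both groups carried it and has 1 altered copy of Shh. In the lung Shh is expressed by the epithelium, and Cre was used here to remove Rptor from that layer. The genes below are mostly products of the mesenchyme, outside the layer where Cre acts. The comparison addresses whether the transcripts of airway smooth muscle and pericyte genes differ when the epithelium has lost mTORC1.

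Airway smooth muscle forms from mesenchyme next to the growing epithelial tubes, wraps the stalks and is absent from the branch tips. Its cells make actin and myosin of their own kind (Acta2, Actg2, Myh11) together with proteins that bind or organise these filaments (Cnn1, Tagln, Lmod1, Des). Myocardin, encoded by Myocd, joins serum response factor at CArG boxes in the promoters of many contractile genes and raises their transcription. Pdgfra and Pdgfrb encode receptors of platelet-derived growth factors. The beta receptor is a usual marker of pericytes, the mural cells of small vessels, while the alpha receptor marks much of the lung mesenchyme and the cells that later become myofibroblasts.

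Each library held 20197642 to 21276090 reads on genes, as recovered from the deposited values, so depth differed little between pools. Values below are normalized counts, which are a gene's reads divided by the size factor of its library. The targeted gene Rptor gave 2126, 2193 and 2279 from controls 1 to 3 and 2023, 2137 and 2148 from mutants 1 to 3, and the groups overlapped (log2 difference −0.06, adjusted p = 0.584, limma). The whole lung holds many cells without Cre, so this transcript level is only a weak check of the labels. Markers of the epithelium and of the mesenchyme were present in all 6 libraries, with none of the 15 listed epithelial and 15 listed mesenchymal genes at 0 throughout. Control pool 3 stood apart from the other controls in the genes reported here: of all 6 pools it was the lowest for 5 of the 10 (Acta2, Myh11, Actg2, Cnn1 and Des) and the highest for the other 5 (Tagln, Lmod1, Myocd, Pdgfra and Pdgfrb). Among the 12501 genes with a mean of at least 50, control pool 3 was the lowest or the highest of the 6 pools for 53.5%. Results are therefore given with and without it.

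**Figure D1:**
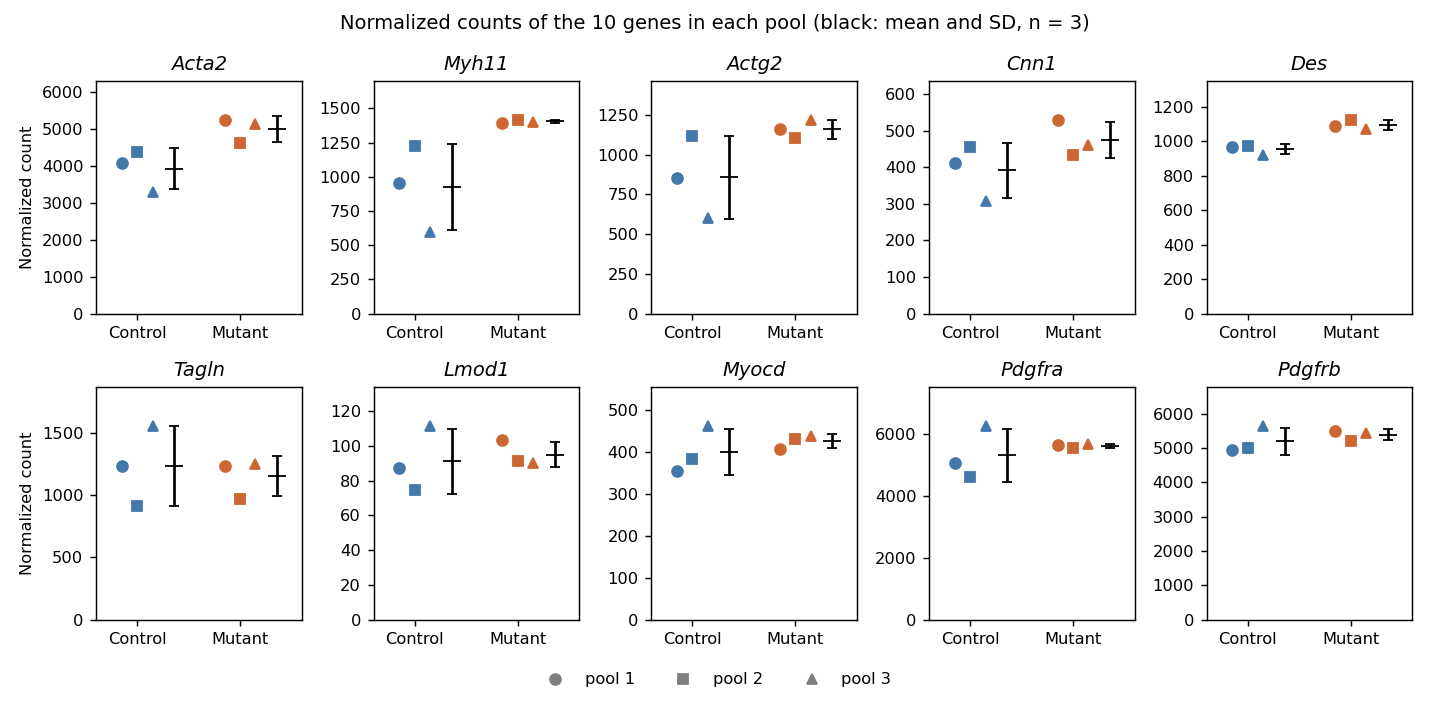
Normalized count (vertical axis, linear, from 0) of each of the 10 genes in each pool. Points are single pools, with a marker shape each for pools 1, 2 and 3, and black lines with bars are the group mean and SD (n = 3 pools a group). The mutant pools lie above every control pool for Acta2, Myh11 and Des, and control pool 3 is at the edge of the 6 values in every panel.

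No gene of the 10 differed between mutant and control pools at an adjusted p under 0.05 (limma on log2(normalized count + 1), Benjamini-Hochberg adjustment over 17168 genes). The background is low as well, since 0.501% of all tested genes passed. None passed with edgeR on the recovered reads (background 0.539%) and 1 of the 10, Acta2, with DESeq2 (background 1.99%). At an unadjusted p under 0.05, 4 of the 10 passed, all higher in mutant pools (Acta2, Des, Myh11 and Actg2), against 6.67% of all tested genes in that direction. With edgeR the same 4 genes passed at this level (background 7.16%), and with DESeq2 Acta2, Des, Myh11 and Cnn1 did, again all higher (background 3.85%). The groups did not overlap for 3 of the 10, again all higher in mutant pools, and 9.77% of all tested genes showed this. The mean log2 difference was above 0 for 9 of the 10, as for 49.5% of all tested genes, and below 0 for Tagln, and their median was 0.15, beside −0.00 over all genes tested. When each library was instead scaled to lung mesenchyme markers, which moved the median of all genes to −0.18, 5 of the 10 were above 0, and Myocd, Lmod1, Pdgfra and Pdgfrb joined Tagln below it. In bulk RNA, fewer cells of a type and less RNA per cell cannot be told apart, and the same holds for more.

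Among the contractile genes, Acta2, which encodes smooth muscle alpha-actin and is the usual stain for airway smooth muscle, had the highest level. It lies at chr19:34241090-34255590 on the minus strand (GRCm38). The control pools gave 4093, 4381 and 3311 and the mutant pools 5255, 4613 and 5141. Every mutant pool was thus above every control pool, although mutant pool 2 exceeded control pool 2 by less than the controls varied. The means were 3928 ± 554 and 5003 ± 342 (SD, n = 3 each), a ratio of 1.27. This is a log2 difference of 0.36 (SE 0.09, 95% interval 0.15 to 0.56, adjusted p = 0.134, limma). The exact two-sided permutation test gave p = 0.1, the smallest that 3 pools against 3 allow. Without control pool 3 the difference was smaller but passed, at 0.24 (95% interval 0.12 to 0.35, adjusted p = 0.0315, limma), and without control pool 2 it was 0.44 (adjusted p = 0.0481, limma). DESeq2 on the recovered reads of all 6 pools called Acta2 (adjusted p = 0.00404), while edgeR on the same reads did not (adjusted p = 0.139).

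The promoter of Acta2 is shown because CArG boxes are the site through which myocardin and serum response factor act on contractile genes. RefSeq windows of the 250 bases before the gene start (GRCm38.p6) were at hand for 5 of the 10 genes: Acta2, Cnn1, Des, Lmod1 and Pdgfra. The exact CArG box was found in none of these 5 windows, and in 1.47% of all 32851 windows. With at most 1 mismatch it was found in 2 of the 5, Acta2 and Lmod1, and in 18.6% of all windows. The motif is its own reverse complement, so 1 search covers both strands. The matches are printed 5′ to 3′ on the strand of the gene, with 10 bases on each side and the matched bases in capitals. In order they start 84 and 34 bases before the start of Acta2 (minus strand, chr19:34255438-34255467 and chr19:34255388-34255417) and 189 and 164 bases before the start of Lmod1 (plus strand, chr1:135324614-135324643 and chr1:135324639-135324668). By GENCODE, whose Acta2 reaches 34255590, both Acta2 stretches lie inside the annotated gene.
Acta2, farther match: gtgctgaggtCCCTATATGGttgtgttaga
Acta2, nearer match: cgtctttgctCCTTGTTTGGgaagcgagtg
Lmod1, farther match: gcccccttgtCTTTAAAAGGctaaactgct
Lmod1, nearer match: ctgctctgtaCTAAATTTGGtcacgcagcg
These matches are letters in a window and were not tested for binding. The 2 genes that hold them stood at the upper and lower ends of the levels described below.

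Myh11, the heavy chain of smooth muscle myosin (chr16:14194535-14291372, minus strand), had the largest difference of the 10 genes. The control pools gave 953, 1225 and 598 and the mutant pools 1395, 1417 and 1403. The controls were spread over a ratio of 2.05 between highest and lowest, whereas the 3 mutant pools lay within a ratio of 1.02 of each other and above all controls. The means were 925 ± 314 and 1405 ± 11.2 (SD, n = 3 each), a ratio of 1.52. On the log2 scale the difference was 0.66 (SE 0.20, 95% interval 0.23 to 1.10, adjusted p = 0.176, limma), and edgeR and DESeq2 gave adjusted p = 0.188 and 0.373. Control pool 3 set much of its size: without it the log2 difference was 0.38 (95% interval 0.20 to 0.55, adjusted p = 0.0263, limma). Without control pool 2, the control nearest to the mutants, it was 0.89 (adjusted p = 0.0332, limma).

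Actg2 encodes smooth muscle gamma-actin, which is typical of visceral muscle (chr6:83512905-83536265, minus strand). The control pools gave 852, 1118 and 600 and the mutant pools 1158, 1101 and 1218. Control pool 2 lay inside the mutant range, so the groups overlapped, and control pool 3 was again the lowest. The log2 difference was 0.48 (SE 0.17, 95% interval 0.10 to 0.86, adjusted p = 0.249, limma). It was 0.25 without control pool 3 (adjusted p = 0.177, limma) and 0.69 without control pool 2 (adjusted p = 0.0380, limma). Of the 2146 stretches of 50 bases in Acta2 transcripts, 7 (0.326%) also occur in another actin gene's transcripts, and none of the 1592 in Actg2 transcripts does. How reads shared between actins were assigned was not tested.

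Cnn1 encodes calponin, which binds actin and slows myosin (chr9:22099216-22109630, plus strand). The control pools gave 412, 455 and 307 and the mutant pools 529, 433 and 460. Control pool 2 was above mutant pool 2, and the groups overlapped. Its log2 difference was 0.29 (SE 0.14, 95% interval −0.01 to 0.59, adjusted p = 0.382, limma), and it was 0.13 without control pool 3 (adjusted p = 0.522, limma).

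Des encodes desmin, the intermediate filament protein of muscle cells, which pericytes also make (chr1:75360329-75368579, plus strand). It was the steadiest gene of the 10 among the control pools, at 966, 975 and 921, and the mutant pools gave 1092, 1126 and 1070. The spread within each group was about what counting alone gives: the coefficient of variation (CV, the SD as a percentage of the mean) was 3.01% in controls and 2.56% in mutants, beside 3.24% and 3.01% for counting error. The groups did not overlap, with means of 954 ± 28.7 and 1096 ± 28.0 (SD, n = 3 each) and a ratio of 1.15. The log2 difference was 0.20 (SE 0.05, 95% interval 0.09 to 0.31, adjusted p = 0.133, limma). It was 0.18 without control pool 3 (adjusted p = 0.0925, limma), but 0.02 when libraries were scaled to mesenchyme markers (adjusted p = 0.744, limma). The exact permutation p was 0.1, the smallest possible.

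**Figure D2:**
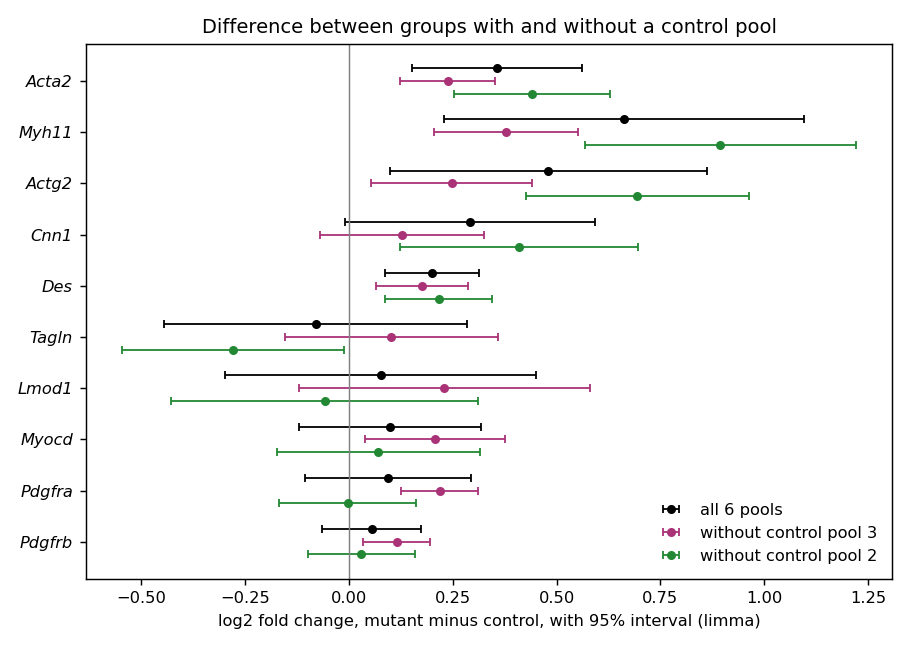
Log2 difference of mutant minus control pools (horizontal axis) for each of the 10 genes, with 95% intervals from limma, over all 6 pools and without control pool 3. Without control pool 3 the difference shrinks for Acta2, Myh11, Actg2, Cnn1 and Des, grows for Myocd, Lmod1, Pdgfra and Pdgfrb, and turns from −0.08 to 0.10 for Tagln.

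Tagln, which encodes the actin-binding protein transgelin (SM22 alpha), was the only gene of the 10 with a lower mean in mutant pools (chr9:45929619-45936058, minus strand). The control pools gave 1234, 915 and 1553 and the mutant pools 1229, 965 and 1251. All 3 mutant values fell between the lowest and the highest control. Its log2 difference was −0.08 (SE 0.16, 95% interval −0.45 to 0.28, adjusted p = 0.874, limma), and without control pool 3 it was 0.10 (adjusted p = 0.721, limma). Tagln was lowest in control pool 2 and mutant pool 2. The summed normalized counts of 8 skeletal muscle markers were also lowest there, at 96.1 and 103, beside 212 and 411 in controls 1 and 3 and 386 and 335 in mutants 1 and 3, and their part in the Tagln values was not tested. The gene's span overlaps that of Pcsk7 on the opposite strand (mean normalized count 636), and whether reads were counted by strand is not given in the sources used here, so reads of the shared stretch cannot be told apart.

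Lmod1 encodes leiomodin, which starts new actin filaments (chr1:135324807-135368065, plus strand). It was the lowest of the 10 genes, with control values of 87.4, 74.4 and 111 and mutant values of 103, 91.2 and 90.3. All mutant values lay between the controls. At this depth counting alone gives a CV of 10.5% in controls. The log2 difference was 0.08 (SE 0.17, 95% interval −0.30 to 0.45, adjusted p = 0.885, limma).

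Myocd, the coactivator of the contractile program (chr11:65176561-65269989, minus strand), gave 356, 382 and 462 in the controls and 408, 431 and 439 in the mutants. The mutant values again fell inside the range of the controls, whose highest value was control pool 3. For Myocd the log2 difference was 0.10 (SE 0.10, 95% interval −0.12 to 0.32, adjusted p = 0.711, limma), and 0.21 without control pool 3 (95% interval 0.04 to 0.38, adjusted p = 0.193, limma). Without control pool 1 it was 0.02 (adjusted p = 0.960, limma).

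The receptor Pdgfra (chr5:75152292-75198215, plus strand) gave 5059, 4592 and 6248 in the controls and 5628, 5527 and 5670 in the mutants. The mutant pools agreed closely, at 5608 ± 73.7 (SD, n = 3), and lay between control pools 1 and 3. Over all 6 pools the log2 difference was 0.09 (SE 0.09, 95% interval −0.11 to 0.29, adjusted p = 0.699, limma). This value turned on single controls. Without control pool 3 Pdgfra was higher in mutant pools and passed the threshold (log2 difference 0.22, 95% interval 0.13 to 0.31, adjusted p = 0.0169, limma), and without control pool 2 the difference was −0.00 (adjusted p = 0.984, limma).

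Pdgfrb gave 4935, 5017 and 5647 in the controls and 5503, 5215 and 5452 in the mutants. Mutant pools 1, 2 and 3 all lay above control pools 1 and 2 and below control pool 3. The log2 difference was 0.05 (SE 0.05, 95% interval −0.07 to 0.17, adjusted p = 0.710, limma) over all pools and 0.12 without control pool 3 (95% interval 0.03 to 0.20, adjusted p = 0.127, limma). The 95% interval over all pools holds for that fit only and sets no bound. When libraries were scaled to lung mesenchyme markers the difference was −0.12 (95% interval −0.25 to 0.0045, limma).

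Without control pool 3, 3 of the 10 genes passed an adjusted p under 0.05, all higher in mutant pools (Acta2, Myh11 and Pdgfra). Of all genes tested in those 5 libraries 1.08% passed as higher in limma, and 2.75% in either direction. On the recovered reads of the same 5 libraries 3 of the 10 passed with edgeR and 3 with DESeq2, all higher. Of all tested genes, 1.37% passed as higher with edgeR (3.68% in either direction) and 1.3% with DESeq2. The groups then did not overlap for 7 of the 10, all higher in mutant pools (Acta2, Myh11, Des, Myocd, Lmod1, Pdgfra and Pdgfrb), beside 16.2% of all genes. Without control pool 2, 3 of the 10 passed (Acta2, Myh11 and Actg2), beside 0.45% of all genes that passed as higher in mutant pools. Acta2 and Myh11 passed in both cases, Pdgfra only without control pool 3 and Actg2 only without control pool 2. With any other single library left out, none of the 10 passed in limma.

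The departure of control pool 3 differed in size between the genes. In that library, Myh11 was 0.90 below its mean over the 6 pools on the log2 scale, Actg2 0.71 below, Cnn1 0.47 below, Acta2 0.41 below and Des 0.15 below. There, Tagln was 0.40 above its mean, Lmod1 0.27, Pdgfra 0.20, Myocd 0.17 and Pdgfrb 0.09. The mutant pools ranked otherwise: mutant pool 2 was the lowest of the 3 for Acta2 and Tagln alike and the highest for Myh11 and Des. The CV was larger among control than among mutant pools for 10 of the 10 genes, and for 62.0% of all genes tested. It ran from 3.01% (Des) to 34.0% (Myh11) in controls and from 0.796% (Myh11) to 13.9% (Tagln) in mutants. The mutant values lay wholly inside the range of the controls for 5 of the 10 genes (Tagln, Lmod1, Myocd, Pdgfra and Pdgfrb), and this held for 22.2% of all genes tested.

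**Figure D3:**
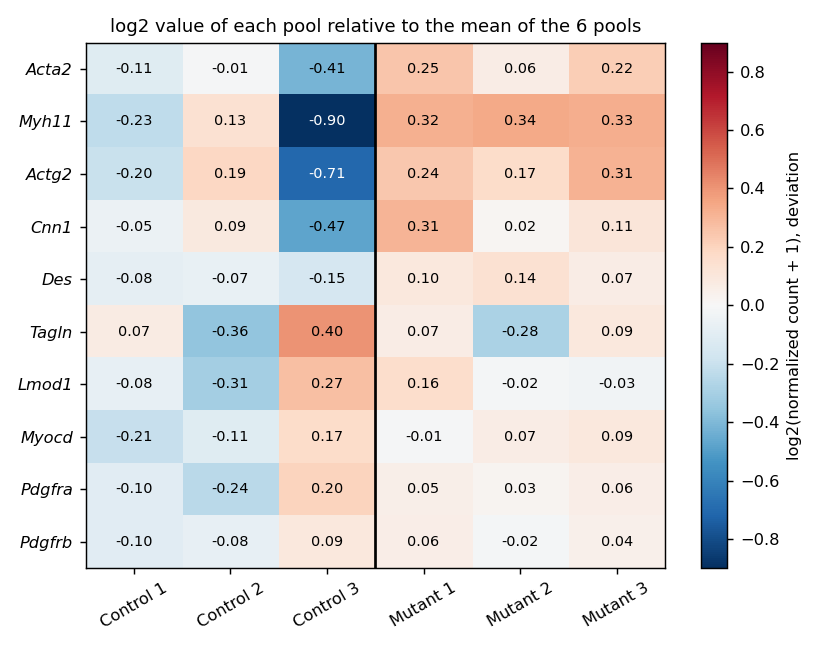
Log2(normalized count + 1) of each of the 10 genes in each pool, minus the mean of that gene over the 6 pools (colour and printed value). Control pool 3 holds the lowest values for Acta2, Myh11, Actg2, Cnn1 and Des, down to −0.90, and the highest for Tagln, Lmod1, Myocd, Pdgfra and Pdgfrb, up to 0.40.

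Ratios within a library do not depend on its scaling. The log2 ratio of Acta2 to Tagln was 1.73, 2.26 and 1.09 in the controls and 2.10, 2.26 and 2.04 in the mutants, so a pair of markers of 1 cell type differed in balance by over 1 log2 unit among controls, and the groups overlapped. The ratio of Acta2 to Pdgfrb was −0.27, −0.20 and −0.77 in the controls and −0.07, −0.18 and −0.08 in the mutants. These groups did not overlap, with a difference in mean log2 ratio of 0.30, though mutant pool 2 and control pool 2 lay close together. Ratios were computed for a few chosen pairs only. Acta2 to Pdgfra, Myh11 to Acta2, Actg2 to Acta2, Tagln to Pdgfra, Des to Acta2 and Lmod1 to Myocd gave overlapping groups. Most pairs, among them Myh11 to Pdgfrb and Des to Pdgfrb, were not computed, and some of these may separate the groups too. Cnn1 held a steady ratio to Acta2, at −3.34 ± 0.08 in control and −3.40 ± 0.09 in mutant pools (SD, n = 3 each). The ratio of Pdgfra to Pdgfrb was 0.02 ± 0.14 in control and 0.06 ± 0.03 in mutant pools (SD, n = 3 each), with overlapping groups.

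Levels of different genes were compared as normalized counts per kb of exon, with all annotated exons of a gene joined. The transcripts in use were not measured, so the order of genes with near levels may depend on this length. In control pools Acta2 was highest, at 1789 ± 252 per kb (SD, n = 3 here and for the levels that follow), then Pdgfrb at 949 ± 71.1, Tagln at 621 ± 160, Actg2 at 550.1 ± 166 and Pdgfra at 529 ± 85.2. Below these came Des at 254 ± 7.64, Cnn1 at 143 ± 27.7, Myh11 at 122 ± 41.4, Myocd at 62.3 ± 8.64 and Lmod1 at 23.1 ± 4.75. The ranges of Tagln and Actg2, of Actg2 and Pdgfra, and of Cnn1 and Myh11 overlapped, so these neighbours cannot be ordered. In mutant pools Actg2 (744 per kb) stood above Tagln (578 per kb) with no overlap, whereas Tagln overlapped with Pdgfra (559 per kb) and Myh11 (185 per kb) with Cnn1 (173 per kb). The lung at this stage therefore held far more transcript of alpha-actin than of the smooth muscle myosin chain in both groups.

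The genes whose values followed Acta2 most closely over the 6 pools, among 11457 genes with a mean of at least 100, were Gucy1a3 (r = 0.994), Ppp2r3d (r = 0.993) and Tbca (r = 0.989). Of the contractile genes, Myh11 (r = 0.950), Actg2 (r = 0.949) and Cnn1 (r = 0.949) ranked 110, 113 and 118 in likeness to Acta2, and Tagln stood at r = −0.446. Closest to Pdgfra were 6720489N17Rik (r = 0.994), Uba7 (r = 0.993) and Robo1 (r = 0.993), with Pdgfrb at r = 0.888. These correlations describe 6 libraries that share the 2 genotypes and the wide control pool 3, and with so few points many genes reach such values.

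Other genes of the contractile apparatus and cytoskeleton were read from a list of 20. None passed an adjusted p under 0.05 with limma or edgeR, and 1, Csrp1, passed as higher with DESeq2. At an unadjusted p under 0.05 in limma, 7 were higher and 1 lower in mutant pools, where all tested genes gave 6.67% and 6.89%, and the list's median log2 difference was 0.06. Pgm5, which encodes an adhesion protein of muscle cells, gave 2352, 2364 and 2443 in the controls and 2751, 2607 and 2747 in the mutants (log2 difference 0.18, adjusted p = 0.114, limma). Csrp1, a LIM protein gene of smooth muscle, had a log2 difference of 0.21 (adjusted p = 0.141 in limma and 0.0455 in DESeq2), and Smtn, the gene of smoothelin, one of 0.17 (adjusted p = 0.160, limma). The mutant pools were above all control pools for each of these 3 genes, which were named for their low p-values. This held for 7 of the 20, beside 9.77% of all tested genes. The mutant pools were below all control pools for Vcl (log2 difference −0.14) and Kcnmb1 (−0.42), both named after their values were seen. In limma, Pgm5 alone of the 20 passed the adjusted threshold when control pool 3 was left out.

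Of 15 transcription regulators of smooth muscle none passed the adjusted threshold with limma or edgeR, and 1, Hic1, passed as higher with DESeq2 (adjusted p = 0.0257). In limma 3 were higher in mutant pools at an unadjusted p under 0.05: Mef2c (0.22), Gata6 (0.20) and Hic1 (0.29, all log2 differences), with adjusted p of 0.127, 0.121 and 0.176 (limma). Mef2c encodes a muscle transcription factor, Gata6 a zinc-finger factor of lung epithelium and mesenchyme, and Hic1 a repressor found in mesenchymal progenitors. The median over the 15 was 0.05. Mef2c and Tbx18 (a factor of mural progenitors, named after its values were seen) passed as higher when control pool 3 was left out.

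Of 15 signals known to act on airway smooth muscle, 1 rose and none fell at the adjusted threshold in limma, which 0.186% of all tested genes passed as higher and 0.315% as lower. Fgf10, the growth factor of the distal mesenchyme whose cells include progenitors of airway smooth muscle, gave 603, 611 and 493 in the controls and 844, 979 and 841 in the mutants. Every mutant pool was well above every control, and the log2 difference was 0.64 (SE 0.09, adjusted p = 0.0322, limma). Fgf10 also passed with edgeR and DESeq2, but not in limma without control pool 1 or without any of the mutant pools (adjusted p = 0.192 without control pool 1, and 0.109, 0.118 and 0.149 without mutant pools 1, 2 and 3). A further 4 of the 15, named after their values were seen, were lower at an unadjusted p under 0.05: the epithelial ligand Wnt7b (log2 difference −0.42, adjusted p = 0.0604, limma), the FGF10 receptor Fgfr2 (−0.22), the Wnt effector Lef1 (−0.19) and the Hedgehog receptor Ptch1 (−0.13). Wnt7b and Fgfr2 fell in DESeq2 on all 6 libraries (adjusted p = 3.1e-05 and 0.0314) and in limma without control pool 3. The 4 genes of PDGF ligands, which bind the receptors above, gave no call: Pdgfa had a log2 difference of −0.19, Pdgfb 0.07, Pdgfc −0.00 and Pdgfd 0.23, with adjusted p of 0.451, 0.773, 0.998 and 0.556 (limma). Of 13 other pericyte and mural markers 12 were tested, and none passed even at an unadjusted p under 0.05, while their median log2 difference was 0.11. Their summed normalized counts ran from 9859 to 13030 in control pools and from 10764 to 11170 in mutant pools, with control pool 3 the highest and control pool 2 the lowest of the 6, as for Pdgfra.

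**Figure D4:**
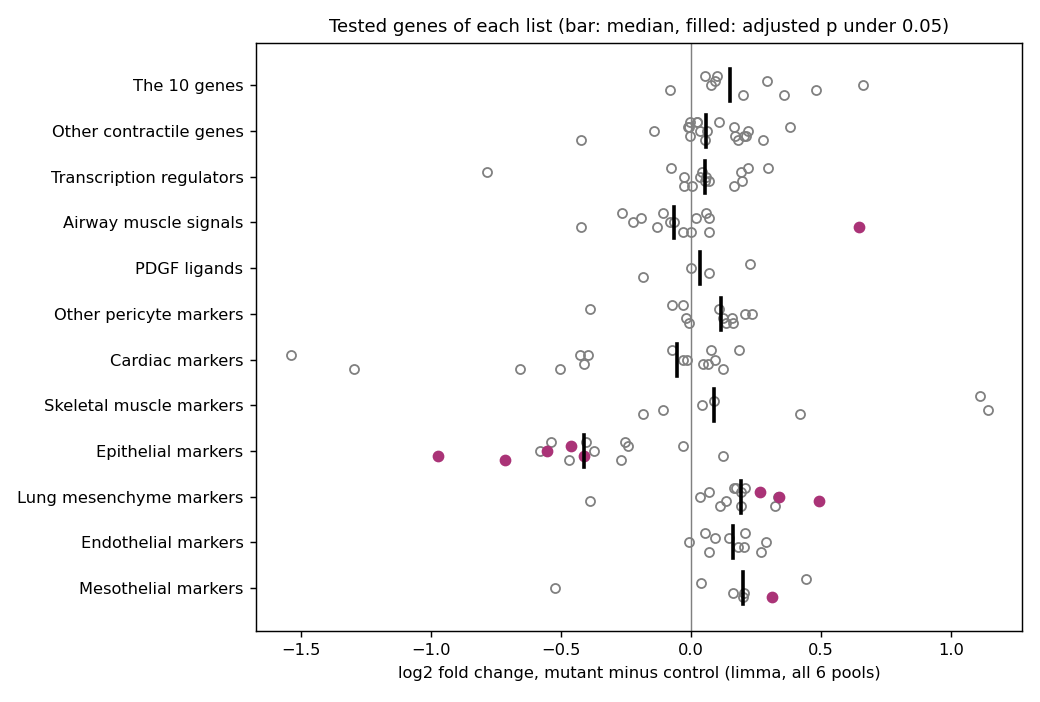
Log2 difference of mutant minus control pools (horizontal axis) for every tested gene of each list (points), with the list median as a line and genes at an adjusted p under 0.05 (limma) filled. The 10 genes described here have a median of 0.15, epithelial markers one of −0.41 and lung mesenchyme markers one of 0.19.

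Markers of the other cells in a whole lung were read beside these genes. Of 15 epithelial markers, 5 fell in limma (Cdh1, Cldn6, Krt8, Krt18 and Grhl2) and none rose. With DESeq2, 8 fell. In limma, 11 fell and 1 (Sox9) rose when control pool 3 was left out, and none passed without control pool 1 or without mutant pool 3. Their summed normalized counts were 18460 to 21005 in control and 13882 to 15620 in mutant pools. Of 15 lung mesenchyme markers, 3 rose in limma (the collagen genes Col1a1, Col1a2 and Col3a1) and none fell, with sums of 107470 to 118217 in control and 133145 to 140971 in mutant pools. These 3 genes had the highest values of the list and weigh most in the sums. With DESeq2, 5 rose, with Vim and Hoxa5 added (both named after their values were seen). In limma, 5 rose without control pool 3 and 4 without control pool 2. Only Col1a1 passed without mutant pool 1 or without mutant pool 2, and none passed without control pool 1 or without mutant pool 3. The log2 difference was above 0 for 14 of the 15 markers and below 0 for 1, Nkx6-1. The median log2 difference of the mesenchyme markers was 0.19, beside 0.15 for the 10 genes described here. Of 10 endothelial markers none passed the adjusted threshold with limma or edgeR and 1, Tie1, did with DESeq2 (adjusted p = 0.0110). In limma 5 were higher at an unadjusted p under 0.05, and the median was 0.16, with Tie1 (0.27), Cldn5 (0.29) and Cdh5 (0.20, log2 differences) at adjusted p of 0.0922, 0.170 and 0.172 (limma). Of 7 tested mesothelial markers 1 rose, Wt1 (log2 difference 0.31, adjusted p = 0.0496, limma), a call that was lost in 13 of 19 alternatives. The list had a median of 0.20. With DESeq2, Wt1 and Krt19 passed as higher (adjusted p = 0.0132 and 0.0241). Krt19, named after its values were seen, had a log2 difference of 0.44 (adjusted p = 0.0734, limma). The part of these markers in the values of the smooth muscle and receptor genes was not tested.

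Heart muscle expresses Des and, in the embryo, Acta2 and Tagln, so its markers were read as well. None of 16 passed the adjusted threshold with limma or edgeR on all libraries. With DESeq2, Myh6 and Nkx2-5 passed as lower (adjusted p = 0.00691 and 0.0275), as did Myh6 and Myl7 in limma without control pool 3 and Nkx2-5 without control pool 2. The summed normalized counts were 1840 to 2034 in control and 1580 to 1752 in mutant pools, and their part in the values of Des, Acta2 and Tagln was not tested. The lowest unadjusted p belonged to Myh6, Nkx2-5 and Tnni3, with log2 differences of −1.30, −1.54 and −0.66 (adjusted p = 0.135, 0.192 and 0.218, limma). All 16 were above 0 in at least 1 pool. Of 8 skeletal muscle markers 7 were tested and none passed at either threshold in limma.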

How the data were processed

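The authors deposited 1 table of normalized counts (a signal value) for 6 libraries of whole E11.5dpc lungs, made by dividing a gene's reads by the library's size factor. The submitters' processing notes name Trim Galore, HISAT2, featureCounts, DESeq2 and build mm10, and versions are not given in the sources used here. The deposited log2 fold changes with their standard errors, the test score and the p-values are the authors' own comparison and were not used. The deposited mean column is the authors' mean over the libraries.

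All (100%) of the values in each library were whole multiples of 1 step within 0.01, which gave whole reads. The step of control pool 3 lies near 1, so both count tests were also run without it. Groups and replicate numbers came from the labels. Pools are separate collections of lungs. The methods speak of littermate controls and of mutants taken from several litters, without the litters of each pool, so p-values measure the spread between these pools.

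limma 3.58.1 (R 4.3.3, variance trend) was fitted to log2(normalized count + 1) keeping genes that reached 1 in 3 or more libraries. Adjusted p-values are those of Benjamini and Hochberg, read at 0.05. On this scale the folds of weakly expressed genes come out too small. Single genes were also compared by an exact permutation test (scipy 1.17.1). edgeR 4.0.16 (quasi-likelihood test, TMM) and DESeq2 1.42.0 were run on recovered reads. The scripts were tested on simulated data, without a pool that departs as control pool 3 did. There, 20 of 191 calls with limma, 17 of 187 with edgeR and 24 of 195 with DESeq2 were of unchanged genes. These shares are above the threshold of 0.05. Counting CVs cover counting error only.

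Members and gene lists were chosen with earlier results of these data known. The genes named are the 10 members, Rptor, from each other list those with an adjusted p under 0.05 or otherwise up to 3 with the lowest unadjusted p under 0.05, and the 3 genes most like Acta2 and most like Pdgfra. The PDGF ligands are named besides. Alternatives were limma without trend, pseudocounts of 0.1 and 10, no filter, values of at least 10 in every library, upper-quartile scaling (75th percentile), scaling to mesenchyme markers, a replicate block, leaving out each library, edgeR and DESeq2. Both count tools without control pool 3 and edgeR with the block were added after seeing the data. Coordinates are those of GENCODE M21 (GRCm38), levels per kb use its exons, and promoters are from RefSeq (GRCm38.p6). Dates stood in place of 27 symbols.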

Additional observations from a re-analysis of the deposited data

How the results depend on the processing

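Over all genes, 86 passed the adjusted threshold. The count was 8 without the variance trend, 18 with no filter, 278 with DESeq2, 545 with edgeR and 416 with DESeq2 when control pool 3 was left out of either, and 1 to 468 when limma left out 1 library in turn. Scaling to mesenchyme markers gave 5359, of which 34 were higher and 5325 lower, against 32 higher and 54 lower otherwise. Of the 10 genes described, none passed with limma or edgeR on all 6 libraries, 1 passed with DESeq2 (Acta2), 3 with edgeR and 3 with DESeq2 without control pool 3, and 0 to 3 when limma left out 1 library. Pseudocounts of 0.1 and 10, a minimum of 10 and upper-quartile scaling left the count of these genes at 0.

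Directions turned for some genes. Scaled to mesenchyme markers, with all genes centred at −0.18, the log2 difference was −0.077 for Myocd, −0.099 for Lmod1, −0.082 for Pdgfra and −0.12 for Pdgfrb. Without control pool 2 it was −0.058 for Lmod1 and −0.0037 for Pdgfra, and leaving out 1 library gave −0.058 to 0.23 for Lmod1, −0.0037 to 0.22 for Pdgfra and −0.28 to 0.10 for Tagln. Tagln turned to 0.10 without control pool 3, with 0.093 in edgeR and 0.10 in DESeq2, and to 0.04 without mutant pool 2. Myh11, Acta2, Actg2, Cnn1 and Des stayed above 0 in all 19 alternatives, but scaling to mesenchyme markers lowered Acta2 to 0.18, Cnn1 to 0.12, Myh11 to 0.49, Actg2 to 0.30 and Des to 0.02. Leaving out 1 library gave 0.02 to 0.21 for Myocd and 0.02 to 0.12 for Pdgfrb. Fgf10 lost its call without the trend (adjusted p = 0.226) and with no filter (0.209, limma), as did all 5 epithelial markers and the 3 collagen genes. Scaling to mesenchyme markers shifted all genes of a library alike, so it lowered every log2 difference by the same amount. The cause of the other turns was not tested, apart from the libraries left out.

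With the replicate number as a block, 71 genes and 0 of the 10 passed in limma (81 and 0 in edgeR), with Wnt7b called as lower in limma. Same-numbered pools correlated in their deviations at −0.03, 0.22 and 0.07, and differently numbered pools at −0.20 to 0.17. The value of 0.22, for the pools numbered 2, was the highest of all pairs. The numbers were not taken to pair the samples.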
